A study of Mus musculus with 9 samples.

Results

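Expression of 33 genes of glycolysis and the hypoxia response was examined in the murine T15 cell line. The genes were a list of glycolytic enzymes, glucose and lactate transporters and targets of the hypoxia-inducible factor (HIF), matched by symbol to the Ensembl mouse identifiers of the deposited count matrix. All 33 were found among its 35288 identifiers, and all 33 were among the 13697 genes that passed the filter on low counts. By role, the list held 4 transporters, 17 glycolytic enzymes, 3 enzymes that make and degrade fructose-2,6-bisphosphate, 3 pyruvate dehydrogenase kinases, 3 genes of HIF regulation and 3 other HIF targets.

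T15 is a Smarcb1-negative cell line from a mouse model of peripheral T-cell lymphoma (PTCL). Smarcb1 encodes a core subunit of the SWI/SNF chromatin remodeling complex. Bulk RNA-seq was done on 3 libraries each of control cells, of cells given SAHA (vorinostat, an inhibitor of histone deacetylases) at 1 µM, applied repeatedly over 72 h, and of Smarcb1-RE cells. Smarcb1-RE cells carried a lentiviral, doxycycline (Dox)-inducible Smarcb1 cDNA, had been selected with G418 and received Dox at 0.5 µg/µl for 72 h. All groups shared the T15 background without Smarcb1 of its own. Per the labels, SAHA was set against vehicle and re-expression against a control plasmid, but only 1 set of 3 control libraries was given, and the labels do not name its treatment. The study's text calls the sequenced control cells untreated, while its outline of the re-expression system pairs Smarcb1-RE with cells that carry an empty vector and also receive Dox. When Smarcb1-RE is compared with these control libraries, transduction, G418, Dox and Smarcb1 cannot be told apart. Several stable clones were established, and the labels do not say whether the 3 Smarcb1-RE libraries came from 1 clone or more. Cells were grown in RPMI medium with added pyruvate, and no low-oxygen culture was described. The study reports strong apoptosis at the SAHA dose used for sequencing, with the large majority of cells dead. After re-expression it reports slower cell growth, with viability and cell cycle unaffected. The groups are therefore not known to be equally viable or equally fast growing. The part of cell death and slower growth in the RNA changes below was not tested.

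Library totals ranged from 20900424 to 24941408 estimated counts, and 3 counts, taken as the lowest detectable level, corresponded to 0.123 to 0.133 CPM (counts relative to the normalized library total), a limit that covers counting error only. Smarcb1 had 2, 5 and 8 counts in the control libraries and 151, 147 and 142 in those of Smarcb1-RE, and 7, 13 and 3 with SAHA. Of 12 T cell markers, 9 were above the detectable level in every library, whereas Cd2, Cd5 and Cd4 were at or under it in all groups. Control replicate 1 stood apart from the other 2 control libraries across all genes, with a chi-square per gene of 13.4 and 15.0 against 2.12 to 4.69 for the other pairs within groups. Counts of called members without this library are given below. Each group held 3 libraries that the study describes as biological replicates, and the first 2 comparisons share the control libraries. In bulk RNA, a lower value can mean less RNA per cell or fewer cells of a kind, which cannot be told apart here.

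Glycolysis converts glucose to pyruvate in the cytosol, and lactate dehydrogenase reduces pyruvate to lactate, which leaves the cell through monocarboxylate transporters. Under low oxygen, HIF-1 accumulates because prolyl hydroxylases no longer mark its alpha subunit for degradation, and it activates genes of glucose uptake, glycolysis, angiogenesis and mitophagy. Proliferating T cells and T cell lymphomas use glycolysis heavily even when oxygen is present, and Myc drives many of the same enzyme genes.

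HIF binds a short core sequence that reads ACGTG or GCGTG, and the palindrome CACGTG, the E-box bound by Myc and its relatives, contains ACGTG on both strands. The 250 bases before annotated transcription starts were taken from RefSeq (GRCm38.p6), in which 32 of the 33 genes matched, all but Slc2a3, with 49 promoters. ACGTG occurred on either strand in 24 of these 49 promoters (49.0%) and in 16.6% of all 32851 promoters of the same length. ACGTG or GCGTG occurred in 39 of them (79.6%) and in 38.6% of all promoters. Since a CACGTG counts on both strands, it adds 2 matches to a promoter. A match is a run of letters and not a binding site.

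The promoters of 6 genes on which the results below turn are shown in lower case, 5′ to 3′ on the strand of the gene, with every ACGTG or GCGTG on either strand in capitals. They are those of Ldha (chr7:46845554-46845803, plus strand), Pgk1 (chrX:106186850-106187099, plus strand), Aldoa (chr7:126799255-126799504, minus strand), Bnip3 (chr7:138909507-138909756, minus strand), Pdk2 (chr11:95041372-95041621, minus strand) and Vegfa (chr17:46032378-46032627, minus strand). Where a gene had more than 1 listed start, the promoter with the most matches was taken, or of equals the one farther upstream, and for Vegfa the one at the 5′ end of the gene.
Ldha: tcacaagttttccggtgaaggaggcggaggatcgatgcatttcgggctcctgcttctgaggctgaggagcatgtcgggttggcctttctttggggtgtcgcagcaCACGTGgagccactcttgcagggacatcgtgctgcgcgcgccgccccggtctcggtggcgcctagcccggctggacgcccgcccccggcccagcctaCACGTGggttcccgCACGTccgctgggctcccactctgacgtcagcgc
Pgk1: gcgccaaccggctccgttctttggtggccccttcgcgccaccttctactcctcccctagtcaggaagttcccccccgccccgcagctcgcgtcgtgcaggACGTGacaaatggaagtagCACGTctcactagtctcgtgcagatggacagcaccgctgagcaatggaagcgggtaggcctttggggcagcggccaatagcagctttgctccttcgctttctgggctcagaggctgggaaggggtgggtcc
Aldoa: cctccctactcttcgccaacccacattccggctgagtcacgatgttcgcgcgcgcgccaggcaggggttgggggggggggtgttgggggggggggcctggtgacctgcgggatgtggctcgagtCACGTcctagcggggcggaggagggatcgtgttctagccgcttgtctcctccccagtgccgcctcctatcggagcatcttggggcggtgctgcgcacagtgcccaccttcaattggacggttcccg
Bnip3: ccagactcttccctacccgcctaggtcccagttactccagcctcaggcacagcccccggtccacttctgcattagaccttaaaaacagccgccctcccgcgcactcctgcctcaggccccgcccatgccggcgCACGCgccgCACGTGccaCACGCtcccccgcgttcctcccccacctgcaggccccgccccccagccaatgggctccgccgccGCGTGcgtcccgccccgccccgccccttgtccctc
Pdk2: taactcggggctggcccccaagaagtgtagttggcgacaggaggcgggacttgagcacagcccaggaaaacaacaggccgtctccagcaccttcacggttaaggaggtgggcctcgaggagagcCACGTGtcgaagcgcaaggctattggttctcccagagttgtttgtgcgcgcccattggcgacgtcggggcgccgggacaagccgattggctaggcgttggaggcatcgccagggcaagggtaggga
Vegfa: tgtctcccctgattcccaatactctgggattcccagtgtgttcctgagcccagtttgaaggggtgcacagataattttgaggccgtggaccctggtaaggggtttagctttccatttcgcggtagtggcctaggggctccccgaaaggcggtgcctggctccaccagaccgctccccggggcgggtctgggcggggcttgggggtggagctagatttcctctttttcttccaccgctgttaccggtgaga
The Ldha promoter held 5 matches, 4 of them in a pair of CACGTG palindromes. Pgk1 held ACGTG once on each strand. Bnip3 held 5 matches, of which 2 form a CACGTG. Pdk2 held a single CACGTG, Aldoa a single ACGTG on the opposite strand, and this window of Vegfa neither sequence. The other listed Vegfa promoter (chr17:46025164-46025413), not shown, held 2 matches, GCGTG and an ACGTG on the opposite strand. Conversely, Aldoa and Pdk2 each had another listed promoter without a match, so the windows shown do not rank the genes by motif.

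With SAHA, 14 of the 33 genes were called higher and 9 lower than in control (edgeR's quasi-likelihood test, adjusted p-value under 0.05), and the median log2 fold change was 0.11. Among all genes tested, 32.6% were called higher and 34.3% lower, 66.9% in all. In Smarcb1-RE, 11 of the 33 were called higher and 18 lower than in control, with a median of -0.25, where all genes gave 39.2% higher and 38.6% lower, 77.8% in all. Set against SAHA directly, 6 were higher and 23 lower in Smarcb1-RE, with a median of -0.61, where all genes gave 37.7% higher and 36.8% lower, 74.6% in all. The median over all genes was 0.0027 with SAHA, 0.014 in Smarcb1-RE against control and 0.017 in Smarcb1-RE against SAHA. Without control replicate 1 the counts were the same as with it. The median of -0.25 changed with 1 library and with the scaling. It was -0.41 without Smarcb1-RE replicate 1. When libraries were scaled by their totals only it was -0.09, and the median over all genes was then 0.17.

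**Figure D1:**
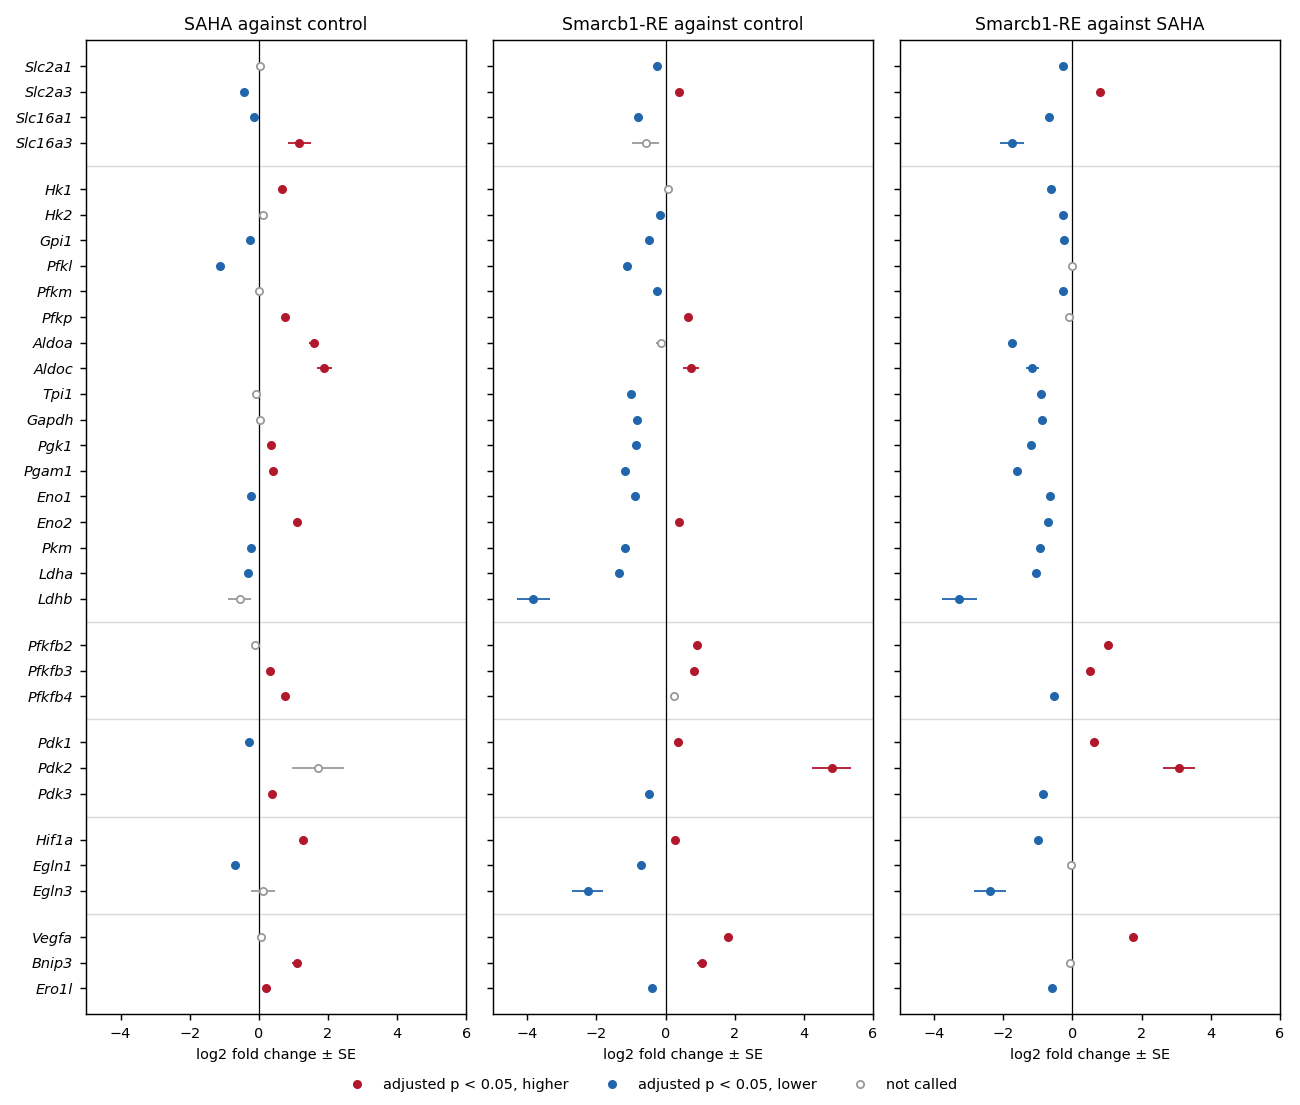
Log2 fold change of each of the 33 genes (x axis, points with standard error bars) in the 3 comparisons, ordered by role from transporters at the top to other HIF targets at the bottom. Filled points passed an adjusted p-value of 0.05, red for higher and blue for lower; in Smarcb1-RE against SAHA all 17 glycolytic enzymes lie below 0, and Pfkl lies at -0.0009.

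Of the 17 glycolytic enzymes, 7 were called higher and 5 lower with SAHA, with a median log2 fold change of 0.049. In Smarcb1-RE, 3 were higher and 12 lower than in control, with a median of -0.83. Against SAHA, 15 of the 17 were lower in Smarcb1-RE, with a median of -0.87. The other 16 genes moved both ways in each comparison.

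**Figure D2:**
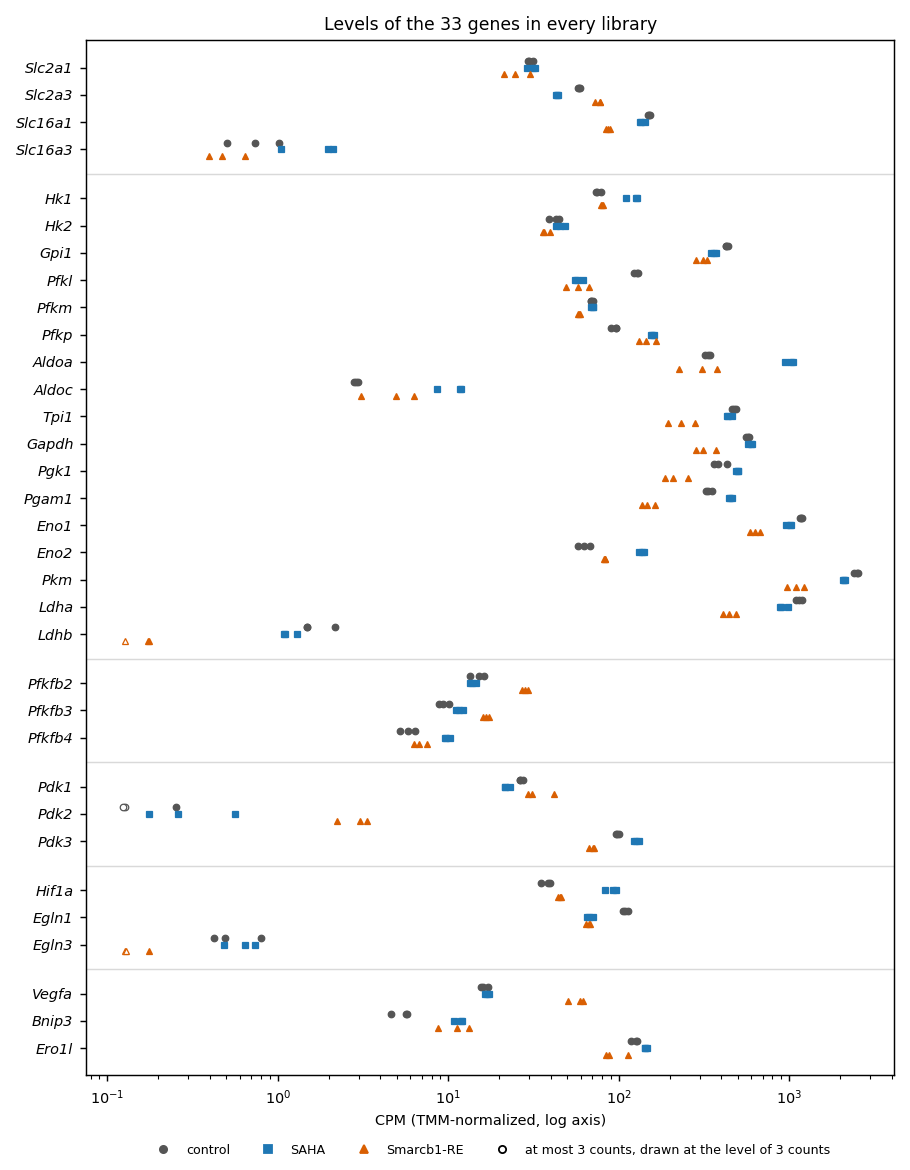
CPM of the 33 genes in each of the 9 libraries on a log axis, with control as circles, SAHA as squares and Smarcb1-RE as triangles; open symbols mark libraries with at most 3 counts, drawn at the level of 3 counts. Levels of different genes are not corrected for length; Pkm, Eno1 and Ldha hold the highest values, and the Smarcb1-RE triangles of Tpi1, Gapdh, Pgk1, Pgam1, Eno1, Pkm and Ldha lie left of all control and SAHA symbols.

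Of the transporters, Slc2a1 (GLUT1, the basal glucose transporter) changed little. It was at 29.3, 31.4 and 29.7 CPM in the 3 control libraries, 31.4, 28.9 and 32.3 with SAHA and 30.4, 21.2 and 24.6 in Smarcb1-RE. The SAHA and control libraries overlapped, and 1 Smarcb1-RE library lay within the control range. Its log2 fold change was 0.036 ± 0.099 with SAHA (adjusted p = 0.767) and -0.25 ± 0.10 in Smarcb1-RE (adjusted p = 0.0411). The latter call was lost without control replicate 2 (-0.23) or 3 (-0.27), without Smarcb1-RE replicate 2 (-0.13) or 3 (-0.22), with scaling by library totals (-0.09), with at least 10 counts in every library (-0.19) and with separate fits to pairs of groups (-0.25).

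Slc2a3 (GLUT3, a glucose transporter of high affinity) went in opposite directions. Its levels were 57.8, 59.5 and 58.3 CPM in control, 44.0, 43.4 and 43.1 with SAHA and 73.1, 77.8 and 78.0 in Smarcb1-RE, so that no 2 groups overlapped. It fell with SAHA (log2 fold change -0.43 ± 0.042, adjusted p = 1.73e-06), rose in Smarcb1-RE (0.38 ± 0.041, adjusted p = 1.92e-06), and was higher in Smarcb1-RE than in SAHA (0.81 ± 0.042, adjusted p = 2.38e-09).

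The lactate transporters differed in level and in response. Slc16a1 (MCT1) was at 151 ± 1.99 CPM in control, 138 ± 5.29 in SAHA and 86.8 ± 2.52 in Smarcb1-RE. It fell by 0.80 on the log2 scale in Smarcb1-RE (adjusted p = 2.38e-09) and by 0.13 with SAHA, a call that was lost without SAHA replicate 3. Slc16a3 (MCT4, which exports lactate from highly glycolytic cells and is a HIF target) was near the detection limit, at 1.02, 0.507 and 0.74 CPM in control, 1.04, 2.12 and 1.98 with SAHA and 0.64, 0.398 and 0.474 in Smarcb1-RE. The lowest SAHA library lay only just above the highest control library. Slc16a3 rose with SAHA (log2 fold change 1.18 ± 0.33, adjusted p = 0.00755) and was lower in Smarcb1-RE than in SAHA (-1.75 ± 0.36, adjusted p = 0.00063), and in Smarcb1-RE against control it gave -0.58 ± 0.39 (adjusted p = 0.188).

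Hexokinases trap glucose in the cell as glucose-6-phosphate. Hk1 rose with SAHA, from 76.1 ± 2.86 to 122 ± 10.4 CPM (log2 fold change 0.68 ± 0.058, adjusted p = 4.86e-07), and was at 79.9 ± 1.38 CPM in Smarcb1-RE (adjusted p = 0.285). Hk2, the inducible isoform that HIF and Myc activate, was at 39.2, 43.0 and 44.9 CPM in control, 48.4, 43.1 and 45.5 with SAHA and 39.6, 36.2 and 36.7 in Smarcb1-RE. All 3 groups lay close together, and control overlapped with both others. Hk2 gave a log2 fold change of 0.11 ± 0.061 with SAHA (adjusted p = 0.141) and was called lower in Smarcb1-RE (-0.18 ± 0.062, adjusted p = 0.0208), a call lost without control replicate 3 (-0.15), without Smarcb1-RE replicate 2 (-0.16) or 3 (-0.16), with scaling by library totals (-0.02) and with at least 10 counts in every library (-0.12). Gpi1, which converts glucose-6-phosphate to fructose-6-phosphate, fell from 432 ± 7.61 CPM to 362 ± 10.7 with SAHA and to 308 ± 23.5 in Smarcb1-RE, by 0.26 and 0.49 on the log2 scale.

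Phosphofructokinase-1, the committing step of glycolysis, is built from liver (Pfkl), muscle (Pfkm) and platelet (Pfkp) subunits. Pfkl was at 128, 129 and 123 CPM in control, 61.9, 55.2 and 56.7 with SAHA and 67.0, 48.9 and 57.8 in Smarcb1-RE. Every treated library lay below every control library, by 2.18-fold on average with SAHA and 2.19-fold in Smarcb1-RE (adjusted p = 1.9e-07 and 7.98e-08). SAHA and Smarcb1-RE overlapped, with a log2 difference of -0.0009 ± 0.089 (adjusted p = 0.993). Pfkp rose from 94.3 ± 3.21 CPM in control to 158 ± 2.98 with SAHA and 148 ± 16.8 in Smarcb1-RE (log2 fold changes 0.74 ± 0.067 and 0.65 ± 0.067). Pfkm gave 0.019 ± 0.037 with SAHA (adjusted p = 0.674) and fell by 0.25 in Smarcb1-RE (adjusted p = 5.33e-05).

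Aldolase splits fructose-1,6-bisphosphate into 2 triose phosphates, and both aldolase genes on the list had the largest called rises under SAHA. Aldoa was at 346, 335 and 320.0 CPM in control, 944, 1034 and 1049 with SAHA and 376, 225 and 307 in Smarcb1-RE. The SAHA libraries lay 3.02-fold above control on average (log2 fold change 1.60 ± 0.13, adjusted p = 3.63e-07), whereas the Smarcb1-RE libraries spread around the control range. Aldoa in Smarcb1-RE gave -0.14 ± 0.13 (adjusted p = 0.334), and without Smarcb1-RE replicate 1 it was called lower, at -0.34. Against SAHA it was 3.33-fold lower in Smarcb1-RE (adjusted p = 8.71e-08).

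Aldoc, the aldolase typical of brain, was expressed far less, at 2.81, 2.87 and 2.96 CPM in control, 8.58, 11.8 and 11.7 with SAHA and 6.31, 3.10 and 4.96 in Smarcb1-RE. It rose 3.71-fold with SAHA (log2 fold change 1.89 ± 0.21, adjusted p = 5.51e-06). In Smarcb1-RE it was called higher as well (0.74 ± 0.23, adjusted p = 0.0098), a call that was lost without replicate 1 of that group (0.47). The lowest Smarcb1-RE library was only just above control. Tpi1, which interconverts the triose phosphates, was at 474 ± 13.3 CPM in control, 444 ± 14.6 in SAHA and 236 ± 44.0 in Smarcb1-RE. It fell in Smarcb1-RE (-1.0031 ± 0.097, adjusted p = 7.91e-07), while with SAHA it gave -0.093 ± 0.095 (adjusted p = 0.408).

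Gapdh (ENSMUSG00000057666, chr6:125161715-125166467 in GRCm38), the first enzyme of the payoff phase of glycolysis and a gene often used as a reference, was at 586, 573 and 559 CPM in control, 599, 572 and 606 with SAHA and 371, 285 and 314 in Smarcb1-RE. SAHA and control overlapped, and every Smarcb1-RE library lay well below both. The log2 fold change was 0.049 ± 0.073 with SAHA (adjusted p = 0.58) and -0.83 ± 0.074 in Smarcb1-RE (adjusted p = 3.95e-07), a 1.77-fold lower level. Gapdh has many near-identical pseudogenes in the mouse, and 169 of them aligned to it over at least 80% of their length at 90% identity or more. These held 64.2%, 64.6% and 65.0% of the summed Gapdh-like counts in control, SAHA and Smarcb1-RE, so the level of Gapdh itself is uncertain. The sum of Gapdh and its pseudogenes was 1558 to 1641 CPM in control, 1646 to 1696 in SAHA and 809.7 to 1048 in Smarcb1-RE, where its mean was 57.7% of that in control.

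Pgk1, the first step of glycolysis that makes ATP, parted the interventions. Its level was 432, 383 and 362 CPM in control, 503, 500.2 and 486 with SAHA and 256, 186 and 209.7 in Smarcb1-RE. No 2 groups overlapped. Pgk1 rose with SAHA (log2 fold change 0.34 ± 0.093, adjusted p = 0.00609) and fell in Smarcb1-RE (-0.85 ± 0.095, adjusted p = 3.1e-06). Its 3 aligned pseudogenes held 30.4% to 33.2% of the summed counts per group, and with them included the mean was 131% of control in SAHA and 54.9% in Smarcb1-RE.

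Pgam1, the mutase that follows, showed the same order of groups. It was at 352, 333 and 327 CPM in control, 453, 442 and 460.3 with SAHA and 164, 138 and 148 in Smarcb1-RE, again without overlap. The log2 fold change was 0.42 ± 0.056 with SAHA (adjusted p = 2.24e-05) and -1.17 ± 0.057 in Smarcb1-RE (adjusted p = 1.39e-09). Smarcb1-RE lay 3.01-fold below SAHA (adjusted p = 1.18e-10). The 3 pseudogenes that aligned to Pgam1 held 11.6% to 12.8% of the summed counts per group.

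Eno1, the ubiquitous enolase, fell from 1176 ± 21.8 CPM to 1000 ± 34.6 with SAHA (log2 fold change -0.23 ± 0.051, adjusted p = 0.00127) and to 632 ± 45.1 in Smarcb1-RE (-0.90 ± 0.051, adjusted p = 5.65e-09). Eno2, the enolase of neurons, rose under both, from 62.9 ± 5.23 to 136 ± 4.47 with SAHA (1.11 ± 0.054, adjusted p = 6e-09) and to 82.7 ± 0.16 in Smarcb1-RE (0.40 ± 0.055, adjusted p = 2.53e-05). Eno1b, a near copy of Eno1 named here after its values were seen, had 169, 0 and 50 counts in control, 78, 98 and 0 with SAHA and 0, 0 and 0 in Smarcb1-RE, few beside those of Eno1, and its values scattered between libraries of a group.

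Pkm, pyruvate kinase, had the highest CPM of the list. It was at 2528, 2498 and 2406 CPM in control, 2140, 2079 and 2114 with SAHA and 1228, 978 and 1103 in Smarcb1-RE. The groups did not overlap, and the Smarcb1-RE libraries were far below the others. The log2 fold change was -0.23 ± 0.064 with SAHA (adjusted p = 0.00681) and -1.17 ± 0.065 in Smarcb1-RE (adjusted p = 4.58e-09).

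The lactate dehydrogenase genes had the largest falls of the 17 enzymes in Smarcb1-RE. Ldha (ENSMUSG00000063229, chr7:46841475-46855627 in GRCm38) was at 1198, 1148 and 1097 CPM in control, 987, 889.9 and 899 with SAHA and 487, 411 and 445 in Smarcb1-RE. The 3 groups were apart, with Smarcb1-RE lowest. Ldha was 1.24-fold lower than control with SAHA (log2 fold change -0.31 ± 0.062, adjusted p = 0.000682) and 2.56-fold lower in Smarcb1-RE (-1.36 ± 0.063, adjusted p = 9.16e-10), and it was lower in Smarcb1-RE than in SAHA (-1.05 ± 0.063, adjusted p = 9.95e-09). Its promoter is the one shown above with 5 motif matches.

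Ldhb, whose subunits favour the use of lactate, was barely expressed. It had 51, 35 and 36 counts in control, 25, 25 and 30 with SAHA and 0, 4 and 4 in Smarcb1-RE, which is 2.17, 1.48 and 1.48 CPM, 1.08, 1.10 and 1.29 CPM and 0, 0.177 and 0.172 CPM. The Smarcb1-RE libraries were at or near the limit of 3 counts. The fitted log2 fold change was -3.82 ± 0.47 in Smarcb1-RE (adjusted p = 8.29e-06) and rests on 8 counts in that group, and -0.56 ± 0.33 with SAHA (adjusted p = 0.155). Per kilobase of merged exon length, Ldha made up 99.7% of the summed lactate dehydrogenase level in control and SAHA and 99.9% in Smarcb1-RE.

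Summed over the 17 enzymes, CPM was 7589 to 8010 in control, 7885 to 8049 in SAHA and 3730 to 4672 in Smarcb1-RE. The mean sum was 102% of control in SAHA and 53.6% in Smarcb1-RE. As a share of all counts, the enzymes took 0.74% to 0.76%, 0.76% to 0.78% and 0.40% to 0.50%. Without Aldoa, the sum was 7269 to 7663 CPM in control, 6851 to 7103 in SAHA and 3505 to 4296 in Smarcb1-RE, so that the SAHA libraries then lay below control, at 93.3% of its mean.

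**Figure D3:**
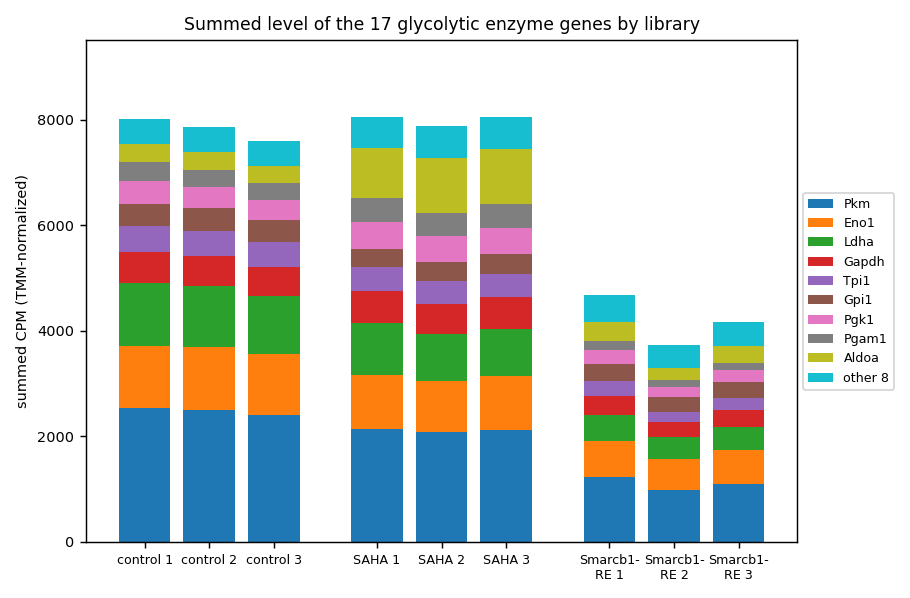
Summed CPM of the 17 glycolytic enzyme genes in each of the 9 libraries (y axis from 0), with Pkm, Eno1, Ldha, Gapdh, Tpi1, Gpi1, Pgk1, Pgam1 and Aldoa as separate segments and the other 8 enzymes together. The Smarcb1-RE bars end between 3730 and 4672 and the other bars between 7589 and 8049; the Aldoa segment is larger in SAHA.

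Where a step has several isoforms on the list, their shares of the summed CPM per kilobase of merged exon length were compared. Pfkl made up 40.5 ± 0.594% of phosphofructokinase in control, 20.91 ± 1.17% in SAHA and 23.2 ± 2.03% in Smarcb1-RE (SD, n = 3 each), and Pfkp 15.1 ± 0.588%, 28.4 ± 0.451% and 29.6 ± 1.32%. Eno2 made up 5.76 ± 0.5% of Eno1 and Eno2 together in control, 13.5 ± 0.773% in SAHA and 13.0 ± 0.819% in Smarcb1-RE. Eno3, left out of this sum, was at 151 CPM in control, 114 in SAHA and 108.5 in Smarcb1-RE (means). With a merged exon length of 1739 bases against 4705 for Eno2, it lay above Eno2 per kilobase in every group. Shares with Eno3 included were not calculated. Both interventions thus had Pfkp and Eno2 shares above all control libraries and Pfkl shares below them. The share of Slc2a1 in the sum of Slc2a1 and Slc2a3 parted them, at 51.5 ± 0.538% in control, 59.4 ± 1.41% in SAHA and 40.6 ± 5.19% in Smarcb1-RE. In each of these comparisons with control the groups did not overlap, and an exact permutation test over libraries (two-sided) gave p = 0.1, the smallest that 3 libraries against 3 can give. With the length of the principal transcript in place of the merged exons, the Pfkp share was 28.2%, 48.8% and 49.8%, in the same order of groups.

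**Figure D4:**
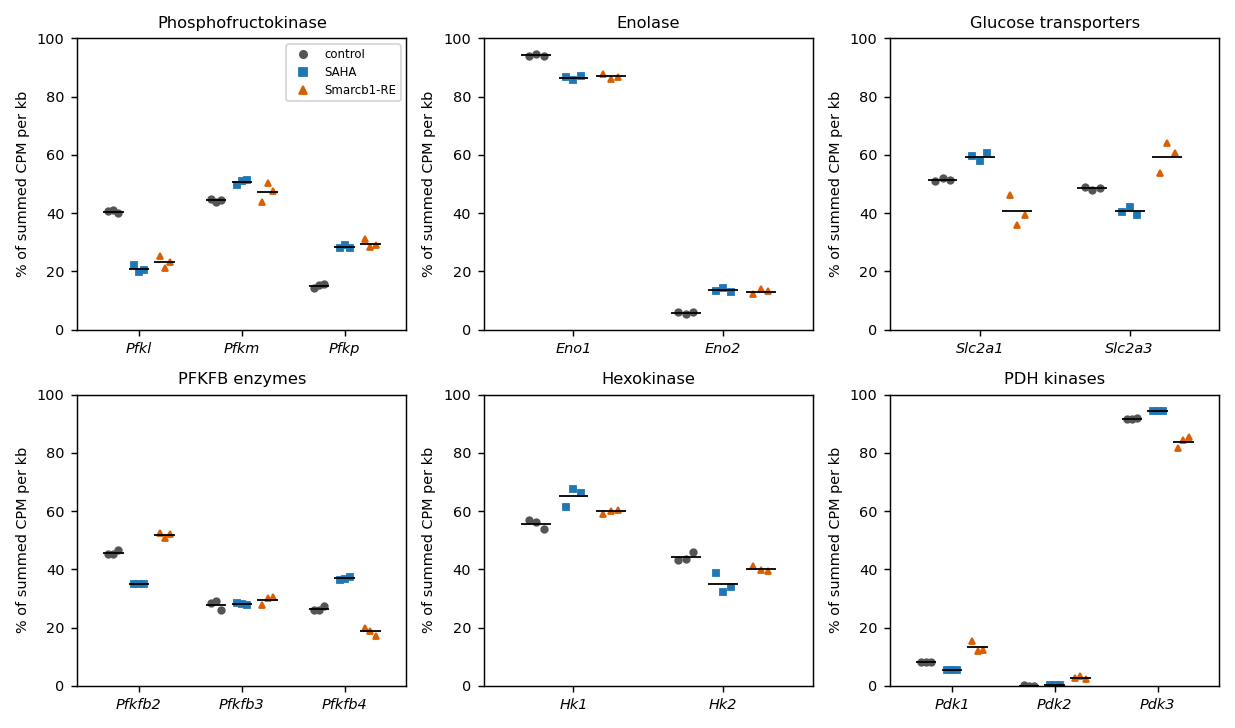
Share of each isoform in the summed CPM per kilobase of the listed isoforms of its step (y axis, percent from 0 to 100) in the 9 libraries. A line marks each group's mean of 3 libraries. Isoforms not on the list, such as Eno3 and Pfkfb1, are left out of the sums. Pfkl shares are lower and Pfkp and Eno2 shares higher in SAHA and Smarcb1-RE than in control, while Slc2a1 shares are highest in SAHA and lowest in Smarcb1-RE.

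The bifunctional PFKFB enzymes set the level of fructose-2,6-bisphosphate, the strongest activator of phosphofructokinase-1. Pfkfb3, the isoform with the highest kinase activity, rose under both interventions, from 9.41 ± 0.654 CPM in control to 11.7 ± 0.526 with SAHA (log2 fold change 0.31 ± 0.077, adjusted p = 0.00316) and 16.8 ± 0.625 in Smarcb1-RE (0.83 ± 0.074, adjusted p = 3.76e-07). Pfkfb2 rose in Smarcb1-RE, from 14.9 ± 1.37 to 28.2 ± 1.11 CPM (0.92 ± 0.071, adjusted p = 9.16e-08), and gave -0.097 ± 0.076 with SAHA (adjusted p = 0.275; without control replicate 1 it was called lower, at -0.17). Pfkfb4, a HIF target, rose with SAHA, from 5.80 ± 0.594 to 9.85 ± 0.348 CPM (0.76 ± 0.10, adjusted p = 2.81e-05), and was at 6.86 ± 0.611 CPM in Smarcb1-RE (0.24 ± 0.11, adjusted p = 0.0537). That last value passed the threshold without control replicate 3 (0.30), without Smarcb1-RE replicate 3 (0.30), with at least 10 counts in every library (0.30) and with scaling by library totals (0.40).

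Pyruvate dehydrogenase kinases switch off the enzyme complex that brings pyruvate into the citric acid cycle. Pdk1, the kinase that HIF-1 induces, was at 26.5, 27.4 and 26.3 CPM in control, 21.5, 21.5 and 23.1 with SAHA and 41.6, 29.3 and 31.2 in Smarcb1-RE. The groups did not overlap, and Smarcb1-RE replicate 1 was well above the other 2 of its group. Pdk1 rose in Smarcb1-RE (log2 fold change 0.35 ± 0.10, adjusted p = 0.00834). With SAHA it was called lower (-0.28 ± 0.11, adjusted p = 0.0374), but this call was lost when any 1 control library, or SAHA replicate 1 or 2, was left out (-0.29 to -0.26), and with at least 10 counts in every library (-0.24).

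Pdk2 showed the largest rise of the list in Smarcb1-RE, from very low counts. It had 6, 1 and 0 counts in control, 6, 4 and 13 with SAHA and 71, 76 and 52 in Smarcb1-RE, which is 3.03, 3.36 and 2.24 CPM in the latter. The Smarcb1-RE libraries stood far above all others, and SAHA overlapped with control. The fitted log2 fold change in Smarcb1-RE was 4.80 ± 0.57 (adjusted p = 5.33e-06) and rests on 7 counts in control, 6 of them in replicate 1. Leaving out 1 control library at a time gave 6.77, 4.45 and 4.22 without replicates 1, 2 and 3. With SAHA it was 1.71 ± 0.76 (adjusted p = 0.0622), and it passed the threshold without control replicate 1 (3.69), without SAHA replicate 2 (2.01), without the filter on low counts (1.69) and by DESeq2 (1.77). Pdk3, the main kinase of these cells by level per kilobase, rose with SAHA from 98.5 ± 1.89 to 127 ± 4.91 CPM (0.37 ± 0.043, adjusted p = 7.23e-06) and fell to 70.0 ± 2.47 CPM in Smarcb1-RE (-0.49 ± 0.044, adjusted p = 3.72e-07).

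Hif1a (ENSMUSG00000021109, chr12:73901375-73947530 in GRCm38), the oxygen-regulated subunit of HIF-1, was at 35.0, 39.7 and 38.6 CPM in control, 83.4, 96.7 and 93.2 with SAHA and 44.4, 46.1 and 45.4 in Smarcb1-RE. All SAHA libraries were above all others, and Smarcb1-RE lay just above control. Hif1a RNA rose 2.41-fold with SAHA (log2 fold change 1.27 ± 0.062, adjusted p = 6e-09) and 1.20-fold in Smarcb1-RE (0.26 ± 0.064, adjusted p = 0.00238). Between the interventions it was lower in Smarcb1-RE (-1.01 ± 0.061, adjusted p = 1.06e-08). HIF-1 is controlled mainly through the stability of its protein, which was not measured.

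Both prolyl hydroxylase genes on the list, whose products mark the HIF alpha subunits, fell in Smarcb1-RE. Egln1 (PHD2, the main oxygen sensor) fell from 109.7 ± 4.12 CPM to 68.0 ± 2.90 with SAHA and 66.5 ± 1.497 in Smarcb1-RE, by 0.69 and 0.72 on the log2 scale (adjusted p = 5.15e-08 and 1.32e-08). Egln3 (PHD3, itself a HIF target) was close to the detection limit, with 10, 19 and 12 counts in control, 17, 11 and 15 with SAHA and 2, 4 and 2 in Smarcb1-RE. Every Smarcb1-RE library had fewer counts than any other library. The log2 fold change of Egln3 was -2.26 ± 0.46 in Smarcb1-RE (adjusted p = 0.000603), on 8 counts in that group, and 0.12 ± 0.34 with SAHA (adjusted p = 0.776).

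Among the other HIF targets, Vegfa (ENSMUSG00000023951, chr17:46016993-46032369 in GRCm38), the angiogenic growth factor, was at 17.2, 15.6 and 16.1 CPM in control, 16.98, 17.4 and 16.5 with SAHA and 62.1, 50.8 and 59.4 in Smarcb1-RE. Control and SAHA overlapped, and all Smarcb1-RE libraries were several-fold above them. Vegfa rose 3.53-fold in Smarcb1-RE (log2 fold change 1.82 ± 0.075, adjusted p = 3.11e-10) and gave 0.060 ± 0.083 with SAHA (adjusted p = 0.544), and the direct difference between them was 1.76 ± 0.075 (adjusted p = 4.63e-10).

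Bnip3, a receptor for mitophagy, rose under both interventions. Its levels were 5.70, 5.71 and 4.65 CPM in control, 10.8, 11.9 and 12.1 with SAHA and 13.3, 8.72 and 11.2 in Smarcb1-RE, and both treated groups were above control without overlap. The log2 fold changes were 1.12 ± 0.14 with SAHA (adjusted p = 1.72e-05) and 1.05 ± 0.14 in Smarcb1-RE (adjusted p = 1.98e-05), and the direct difference was -0.064 ± 0.13 (adjusted p = 0.676). Ero1l, which supplies oxidizing equivalents for disulfide formation in the endoplasmic reticulum, was at 124 ± 5.43 CPM in control, 144 ± 2.22 in SAHA and 95.1 ± 16.1 in Smarcb1-RE. It fell in Smarcb1-RE (-0.38 ± 0.088, adjusted p = 0.00153). Its call with SAHA (0.22 ± 0.086, adjusted p = 0.0392) was lost when any 1 of the control or SAHA libraries was left out (0.18 to 0.24).

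Within the Smarcb1-RE group, replicate 1 had the highest value of its group for 25 of the 33 genes and replicate 2 the lowest for 24 of the 33. Over the 11319 genes whose average log2 CPM exceeded 1, replicate 1 was the highest for 34.8% and replicate 2 the lowest for 35.7%. The median log2 ratio of the 33 genes to the other 2 libraries of the group was 0.17 for replicate 1 and -0.17 for replicate 2, and 0.20 and -0.18 for the 17 enzymes. Of 29 tested further HIF targets, replicate 1 was highest for 23 and replicate 2 lowest for 24. Replicate 1 still lay below every control library for Tpi1, Gapdh, Pgk1, Pgam1, Eno1, Pkm and Ldha. With replicate 1 left out, 10 of the 33 genes were higher and 19 lower than in control, and with replicate 2 left out 11 were higher and 16 lower. The median of the 17 enzymes was -0.95 without replicate 1 and -0.75 without replicate 2.

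**Figure D5:**
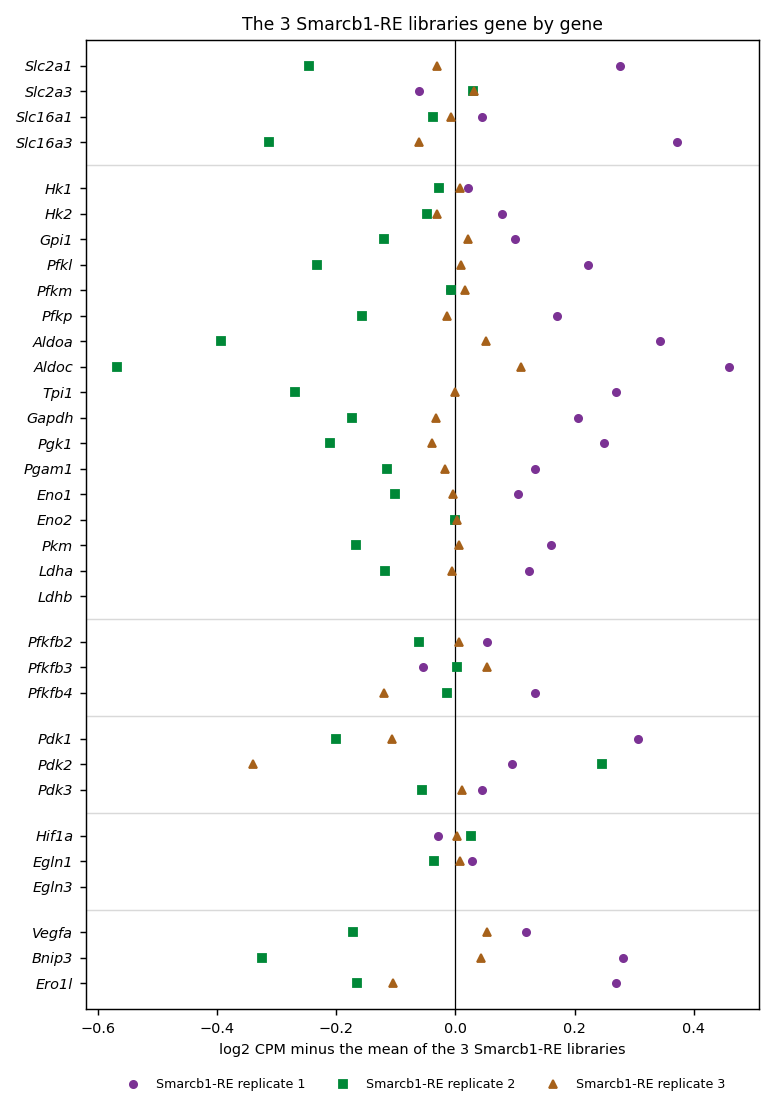
Log2 CPM of each gene in the 3 Smarcb1-RE libraries minus their mean (x axis), for the 31 genes with more than 3 counts in every library of the group. Replicate 1 (circles) lies right of replicate 2 (squares) for most glycolytic enzymes, with the widest gaps for Aldoa and Aldoc.

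Further genes of the pathways were taken from lists by function, and their counts are to be read against the shares of all genes called, 32.6% higher and 34.3% lower with SAHA and 39.2% higher and 38.6% lower in Smarcb1-RE. Of 29 tested HIF targets outside the list, 15 were higher (51.7%) and 8 lower (27.6%) with SAHA, and 16 higher (55.2%) and 8 lower (27.6%) in Smarcb1-RE. Ndrg1, a stress-response gene, rose from 5.87, 7.61 and 5.80 CPM in control to 30.7, 44.2 and 42.7 with SAHA (log2 fold change 2.61 ± 0.21, adjusted p = 3.02e-07). In Smarcb1-RE it was at 27.4, 15.1 and 19.8 CPM, also above every control library. Tmem45a was at 1.23, 1.35 and 1.52 CPM in control, 3.85, 3.005 and 2.93 with SAHA and 111, 105 and 106 in Smarcb1-RE, a log2 fold change of 1.25 ± 0.15 with SAHA and of 6.29 ± 0.087 in Smarcb1-RE (adjusted p = 6.28e-14). Ddit4, an inhibitor of mTORC1, rose in Smarcb1-RE (1.97 ± 0.064, adjusted p = 4.88e-11). Tfrc, named here after its values were seen, went the other way, from 828 ± 27.5 CPM in control to 307 ± 22.0 in Smarcb1-RE.

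Of 15 tested HIF subunits and regulators, 5 were higher and 5 lower with SAHA (33.3% each, near the shares over all genes), and 5 higher (33.3%) and 9 lower (60.0%) in Smarcb1-RE. Os9 rose with SAHA (0.55 ± 0.052) and Rbx1, a part of the ubiquitin ligase that holds VHL, fell (-0.48 ± 0.066). In Smarcb1-RE, Elob, another subunit of that ligase, fell (-1.30 ± 0.062, adjusted p = 1.17e-09) and Siah2, a ubiquitin ligase that degrades prolyl hydroxylases, rose (0.86 ± 0.059, adjusted p = 2.85e-08). Epas1, which encodes HIF-2 alpha, was lower in Smarcb1-RE than in SAHA (-0.87 ± 0.070, adjusted p = 1.6e-07).

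Regulators of glycolysis gave 7 higher (46.7%) and 4 lower (26.7%) of 15 with SAHA, and 6 higher (40.0%) and 8 lower (53.3%) in Smarcb1-RE. Txnip and Arrdc4, arrestin-like proteins that restrain glucose uptake, rose steeply in Smarcb1-RE. Txnip went from 14.6, 16.3 and 14.9 CPM in control to 89.4, 94.1 and 93.9 (2.60 ± 0.098, adjusted p = 1.52e-10), and Arrdc4 from 0.298, 0.38 and 0.247 to 6.74, 6.46 and 6.47 (4.39 ± 0.20, adjusted p = 8.66e-10). Neither gene's Smarcb1-RE libraries overlapped with control. Mlxipl, which encodes the glucose-responsive factor ChREBP, was at 0.383, 0.719 and 0.247 CPM in control and 6.45, 9.10 and 9.39 in SAHA (4.20 ± 0.30, adjusted p = 1.11e-07), and Mtor also rose with SAHA (0.92 ± 0.053, adjusted p = 1.82e-08).

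All 10 listed genes of the pentose phosphate pathway, the branch that makes NADPH and ribose from glucose-6-phosphate, were tested, and 8 were lower (80%) and 2 higher (20%) in each comparison with control. With SAHA, H6pd and Rpia fell most (-0.74 ± 0.079 and -0.66 ± 0.045). In Smarcb1-RE, Tkt went from 459.9, 435 and 410.1 CPM to 178, 168 and 173 (-1.33 ± 0.051, adjusted p = 1.75e-10) and G6pdx, the rate-limiting dehydrogenase, from 74.5, 79.6 and 78.6 to 32.5, 32.2 and 30.6 (-1.29 ± 0.045, adjusted p = 9.25e-11). G6pdx in SAHA was at 85.6, 84.3 and 87.9 CPM, above Smarcb1-RE in every library.

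Of 11 tested genes for other glycolytic isoforms and accessory steps, 2 were higher (18.2%) and 6 lower (54.5%) with SAHA, and 2 higher (18.2%) and 9 lower (81.8%) in Smarcb1-RE. The lower calls in Smarcb1-RE include Eno1b, with scattered counts of 169, 0 and 50 in control and 0 in every Smarcb1-RE library. The higher calls include Hk3, with 3, 3 and 2 counts in control and 17, 26 and 12 in Smarcb1-RE. Galm, an epimerase that interconverts the forms of glucose, rose with SAHA (0.65 ± 0.12) and fell in Smarcb1-RE (-1.04 ± 0.13), Adpgk, an ADP-dependent glucokinase, fell with SAHA (-0.49 ± 0.047), Tigar, which lowers fructose-2,6-bisphosphate, fell in Smarcb1-RE (-0.93 ± 0.048), and Pfkfb1 was higher in Smarcb1-RE than in SAHA (1.15 ± 0.12). Of 7 further transporters, 3 rose (42.9%) and 1 fell (14.3%) with SAHA, and 4 rose (57.1%) and 3 fell (42.9%) in Smarcb1-RE. Slc2a6, a glucose transporter, rose in both (0.61 ± 0.097 and 1.06 ± 0.095), Slc16a10, a transporter of aromatic amino acids, rose with SAHA (0.59 ± 0.054), and Emb, a partner protein of monocarboxylate transporters, rose in Smarcb1-RE (1.74 ± 0.16).

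For the entry of pyruvate into mitochondria, 4 of 11 tested genes were higher (36.4%) and 3 lower (27.3%) with SAHA, and 4 higher (36.4%) and 5 lower (45.5%) in Smarcb1-RE. Pcx, pyruvate carboxylase, rose with SAHA (0.72 ± 0.068). The phosphatase that opposes the pyruvate dehydrogenase kinases has catalytic subunits Pdp1 and Pdp2 and a regulatory subunit, Pdpr. Pdp1 and Pdpr rose in Smarcb1-RE (0.96 ± 0.086 and 1.17 ± 0.090), whereas Pdp2, named here after its values were seen, fell from 46.5, 51.7 and 48.6 CPM in control to 31.1, 29.5 and 27.4 (-0.74 ± 0.061). With SAHA, Pdp1 rose (0.39 ± 0.089) and Pdp2 fell (-0.26 ± 0.059). Mpc1, a subunit of the mitochondrial pyruvate carrier, was lower in Smarcb1-RE than in SAHA (-0.69 ± 0.068). Of 3 tested genes of gluconeogenesis, 1 fell with SAHA (33.3%) and 2 rose in Smarcb1-RE (66.7%). Pck2, the mitochondrial form of phosphoenolpyruvate carboxykinase, fell with SAHA (-0.66 ± 0.050) and rose in Smarcb1-RE (1.23 ± 0.047), and Slc37a4, the glucose-6-phosphate transporter, rose in Smarcb1-RE (0.63 ± 0.079).

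Several measures moved with the groups beside these genes. Eno1 and Slc2a1 lie on chromosome 4, whose 674 genes had a median log2 fold change of 0.29 in Smarcb1-RE against -0.10 on the other autosomes. Slc16a3, Aldoc and Pdk2 lie on chromosome 11, whose 905 genes had a median of -0.20 in Smarcb1-RE compared with control, against -0.06 on the other autosomes. Pgk1 and Pdk3 lie on chromosome X, whose 358 genes had a median of 0.12 with SAHA compared with control, against -0.06 on the autosomes. The share of counts from the mitochondrial genome was 3.02% to 3.53% in control, 3.37% to 3.76% in SAHA and 4.79% to 5.08% in Smarcb1-RE. Of 8 myeloid markers, Csf1r, Adgre1, Cd14, S100a8 and S100a9 were at or under the detection limit in all groups, and the summed level was 1.85 to 2.55 CPM in control and Smarcb1-RE and 5.72 to 7.41 in SAHA, mostly Cd68. Pax5 and Ms4a1, markers of B cells, were low but higher in Smarcb1-RE. Pax5 had 0, 6 and 1 counts in control, 22, 11 and 20 with SAHA and 89, 92 and 88 in Smarcb1-RE (log2 fold change 2.90 ± 0.59 with SAHA and 5.24 ± 0.49 in Smarcb1-RE, adjusted p = 0.000804 and 6.17e-07), and Ms4a1 had 20, 17 and 22 counts in control, 18, 16 and 19 with SAHA and 79, 85 and 79 in Smarcb1-RE (2.08 ± 0.20 in Smarcb1-RE, adjusted p = 5.86e-07). Of 6 stromal and endothelial markers, Col3a1, Pdgfrb and Cdh5 were at or under the limit, and Pecam1 made up nearly all of a sum of 146 to 155 CPM in control, 108 to 122 in SAHA and 129.5 to 131 in Smarcb1-RE. Of the 2 tested, Pecam1 was called lower and Col1a1 higher under both interventions. Col1a1 rose by 3.34 with SAHA and 2.43 in Smarcb1-RE on the log2 scale. Its control level was not above the limit in every library. T cell markers summed to 3509 to 3625 CPM in control, 3934 to 3975 in SAHA and 3567 to 3639 in Smarcb1-RE. The part of these measures in the changes of the glycolytic and HIF genes was not tested.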

How the data were processed

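Strand-specific libraries of bulk RNA were read from 1 end. The authors deposited estimated counts for each Ensembl gene and library as 1 unnormalized matrix. The submitters' processing notes name GRCm38, Salmon 0.14.1, FastQC 0.11.8, MultiQC 1.7 and DESeq2 1.22.2, without their roles. Of 35288 identifiers, 99.5% were found in GENCODE M21 (GRCm38). Since Salmon divides reads shared by near-identical genes, values of genes with pseudogenes are uncertain.

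Counts were rounded (52.4% of values above 0 were not whole) and analysed in R 4.3.3 with edgeR 4.0.16 (TMM factors, minimum count of 10 in filterByExpr, quasi-likelihood F-test in 1 fit to the 9 libraries, Benjamini-Hochberg adjustment over all genes, adjusted p-value under 0.05). CPM are TMM-normalized. Values after ± are standard errors for log2 fold changes and SDs (n = 3) for CPM and shares. Library totals of 20900424 to 24941408 set the precision of low counts. Pseudogenes were counted to a gene where at least 80% of their length aligned to it at 90% identity.

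The members and lists were chosen with earlier results of these data known. Values per library were given for Gapdh, Ldha, Ldhb, Hk2, Hif1a, Vegfa, Pdk1 and Slc2a1 and, per comparison, for the 6 called genes with the largest change and no overlap, and for further genes to show a pattern. From each further list, the 2 called genes with the largest change per comparison and an average log2 CPM of at least 1 were named. Alternatives were DESeq2 1.42.0, RLE factors, library totals only, no filter, a filter of at least 10 counts per library, fits of 2 groups at a time, a replicate block, unrounded counts, added pseudogene counts and leaving out each library. The calculations were tested on simulated data. The summed level of the B cell marker list is not reported here.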

Additional observations from a re-analysis of the deposited data

How the results depend on the processing

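Counts of members called stayed within 1.5 times under every alternative run. Of 877 member log2 fold changes under alternatives other than leaving out a library, 862 kept their call, 5 passed the threshold newly and 9 lost it. A further 1 changed sign and was called, Egln1 in Smarcb1-RE against SAHA, at 0.127 with library totals only. Sign changes of values called in neither setting were not counted as reversals, such as Pfkl in Smarcb1-RE against SAHA (-0.129 to 0.157 over all alternatives). When each library was left out, 860 of 891 kept their call, with the same rule for signs, 7 passed newly and 24 lost it. The cause of these changes was not tested.

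With library totals only, the all-gene median rose to 0.17 in Smarcb1-RE against control and 0.18 against SAHA, and the calls against control to 6476 higher and 4141 lower, from 5371 and 5282. The members' medians were then -0.0871 against control and -0.4506 against SAHA, and those of the enzymes -0.667 and -0.7158. With at least 10 counts in every library, which drops Ldhb by construction, the enzymes' medians were -0.6005 and -0.7744. Leaving out each library gave medians from -0.4084 to -0.2451 (members) and -0.9479 to -0.7451 (enzymes) against control, and from -0.699 to -0.5967 and -0.9935 to -0.7873 against SAHA, the extremes without Smarcb1-RE replicates 1 and 2.

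With principal transcript lengths, chosen after seeing the data, shares in control, SAHA and Smarcb1-RE were 28.16%, 48.8% and 49.78% for Pfkp, 3.734%, 8.995% and 8.689% for Eno2 and 38.46%, 46.27% and 28.7% for Slc2a1, and 41.99% for Pfkl in control.

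Same-numbered libraries did not deviate together (correlations -0.07 to 0.04, against -0.04 to 0.05 for different numbers). No pairing by number was seen, but these correlations cannot show whether same-numbered libraries were prepared together. With the replicate block, members called were 14 higher and 9 lower with SAHA, 11 and 18 in Smarcb1-RE, and 6 and 23 between them.

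Depth limits Ldhb, Pdk2, Egln3 and Slc16a3, whose libraries held few counts.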
